A study of Mus musculus with 14 samples.

Results

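The genes described here are 33 genes of macrophages, dendritic cells and eosinophils, measured in jejunum of mice that carry the nuclear receptor LRH-1 with the K289R substitution and of mice with wild-type (WT) LRH-1. They were chosen by name, and each was represented by the probe set with the highest mean among those assigned to that gene alone. All 33 were found among 22180 genes so named, each with 1 such probe set. RNA came from 7 K289R mice and 7 WT mice aged 19 to 21 weeks, fed ad libitum and killed at 7 am, with 1 array per mouse. The series title has the word hepatic, but every sample label names jejunum. Both genotypes received the same handling, no agent was given, and the labels name no sex, strain background, litter, cage of each mouse or scan day. The substitution is not stated to be limited to any cell type, and whole jejunum holds epithelium, lamina propria, lymphoid tissue and muscle together. Fewer cells of a type and less RNA per cell therefore cannot be told apart.

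Macrophages of the intestinal wall take up bacteria and dying cells, and most of them are renewed from blood monocytes under the control of the receptor encoded by Csf1r. Dendritic cells carry antigen to lymph nodes, develop under the receptor encoded by Flt3, and include a cross-presenting class that needs Batf3 and bears Xcr1. Eosinophils are resident in the healthy small intestine, where they are recognised by Siglecf and by the eotaxin receptor encoded by Ccr3.

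All 9 macrophage markers and all 5 dendritic cell markers used to check the label had means above the limit for dim genes, set so that 25% of probe sets fall below it (6.25 log2 units, or 75.9 in linear intensity). Of the 2 eosinophil markers, Siglecf lay above it on every array, whereas Ccr3 lay below it on every array. Ccr3 reached 4.44, 4.63 and 5.01 log2 units on the lowest, median and highest of the 7 K289R arrays and 4.29, 4.73 and 4.97 on the WT arrays, and it was not tested. Of 10 further genes listed for eosinophils, their growth and their recruitment, 8 were above the limit, as were 18010 of all 22180 genes. Prg3, an eosinophil granule protein gene, and Il5ra, the interleukin-5 receptor gene, were below it. Epx, eosinophil peroxidase, averaged 6.82 ± 0.13 in K289R mice and 6.75 ± 0.14 in WT mice (SD, n = 7 each), just above it, and Prg2, the major basic protein gene, averaged 6.55 ± 0.09 in K289R mice and 6.56 ± 0.16 in WT mice. Alox15, a lipoxygenase gene, averaged 7.60 ± 0.06 in K289R mice and 7.59 ± 0.08 in WT mice, and Csf2ra, a GM-CSF receptor chain gene shared with other myeloid cells, 9.21 ± 0.11 in K289R mice and 9.16 ± 0.11 in WT mice. Siglecf, the eosinophil marker of the 33 genes that could be tested, is known in tuft cells of the intestine as well.

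Promoters of 26 of the 33 genes were matched by symbol in the RefSeq table (build GRCm38.p6). Adgre1, Csf1r, Cd14, C1qa, Tyrobp, Csf2rb and Spi1 were not among them. The letters GAGGAA, a core form of the site bound by the transcription factor PU.1, the product of Spi1, were searched on both strands of the 250 bases upstream of the start. They were present in 15 of the 26 genes (57.7%), against 25.9% of 27025 genes in the table. The longer GAGGAAG, which contains it, was present in 9 (34.6%), against 12.0% of all genes, and GAGGAAGT in 1 (3.85%), against 2.79%. These motif lengths were chosen with the counts known, and a match of letters is a description and not a bound site.

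C1qb and C1qc are shown because these neighbouring genes of the complement C1q complex followed the level of Csf1r over the mice, Cybb because it followed Csf1r without holding the letters, and Siglecf because it holds them and had an r with Csf1r of -0.27. Capitals mark GAGGAA, or TTCCTC where the match is on the opposite strand. The sequences run 5′ to 3′ on the gene's strand and end at the base before the start, at chr4:136886201-136886450 (minus strand) for C1qb, chr4:136892915-136893164 (minus) for C1qc, chrX:9469325-9469574 (minus) for Cybb and chr7:43351091-43351340 (plus) for Siglecf.
C1qb: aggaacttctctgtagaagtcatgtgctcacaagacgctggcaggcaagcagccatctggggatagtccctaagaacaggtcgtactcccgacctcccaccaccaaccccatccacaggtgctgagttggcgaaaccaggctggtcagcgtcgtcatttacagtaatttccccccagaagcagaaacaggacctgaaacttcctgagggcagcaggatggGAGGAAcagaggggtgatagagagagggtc
C1qc: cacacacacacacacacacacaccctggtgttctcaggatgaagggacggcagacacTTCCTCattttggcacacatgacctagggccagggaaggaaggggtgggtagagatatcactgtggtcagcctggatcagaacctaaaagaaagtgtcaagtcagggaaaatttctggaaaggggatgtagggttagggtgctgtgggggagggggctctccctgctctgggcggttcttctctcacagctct
Cybb: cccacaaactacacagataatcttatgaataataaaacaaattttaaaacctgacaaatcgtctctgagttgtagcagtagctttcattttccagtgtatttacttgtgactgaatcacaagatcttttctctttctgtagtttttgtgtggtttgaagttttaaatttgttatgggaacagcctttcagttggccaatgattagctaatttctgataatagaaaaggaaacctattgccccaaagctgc
Siglecf: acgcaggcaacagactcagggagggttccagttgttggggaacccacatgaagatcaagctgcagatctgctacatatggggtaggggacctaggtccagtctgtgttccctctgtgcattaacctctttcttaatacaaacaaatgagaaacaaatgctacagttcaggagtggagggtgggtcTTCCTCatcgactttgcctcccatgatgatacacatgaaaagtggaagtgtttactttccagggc
Among the 12 genes whose level followed that of Csf1r (given further on), 9 had a promoter in the table and 4 of these held GAGGAA (44.4%). Among the other 21 genes, 17 had a promoter and 11 held it (64.7%).

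**Figure D1:**
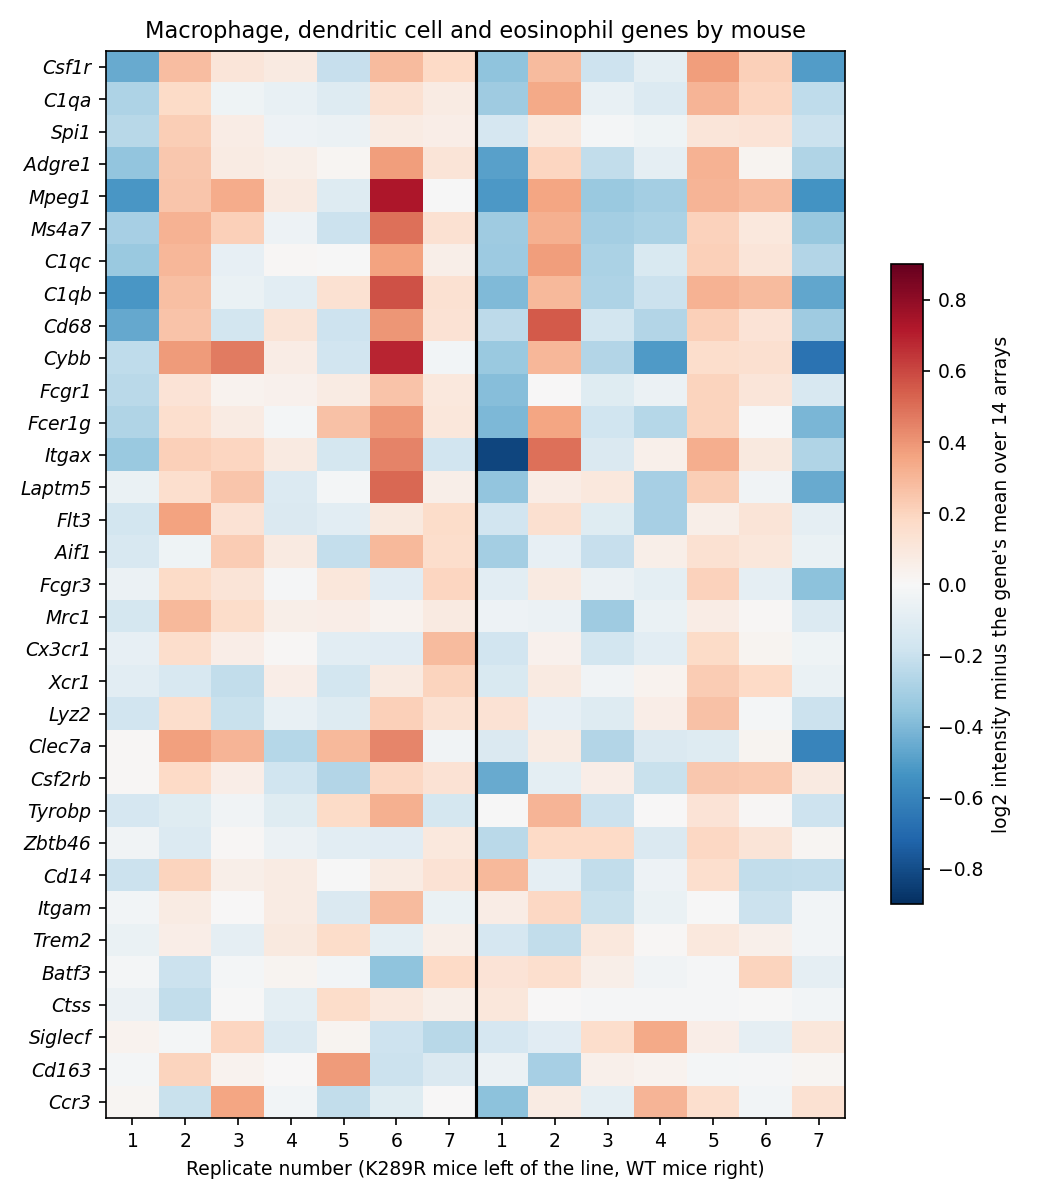
Level of each of the 33 genes (rows) on each array (columns, 7 K289R mice on the left and 7 WT mice on the right), as log2 intensity minus the mean of the gene over all 14 arrays, on a colour scale. K289R replicate 1 is low and K289R replicate 6 high for most of the macrophage genes, and among WT mice replicates 2 and 5 are high.

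K289R was first set against WT for each gene with limma on log2 intensities, where a difference of 1 is a doubling. None of the 32 genes tested passed an adjusted p of 0.05 (Benjamini-Hochberg over 18010 genes), and 8 of all genes (0.0444%) did. At an unadjusted p under 0.05 there were 2 (6.25%), Clec7a and Mrc1, against 8.48% of all genes. Both had the higher mean in K289R mice, and 4.43% of all genes had such a p with the higher mean in K289R mice. The mean was higher in K289R mice for 24 of 32 genes and lower for 8, against 48% of all genes with the higher mean in K289R mice. The median difference, K289R minus WT, was 0.08 log2 units, against -0.0039 over all genes tested, and the differences ran between -0.12 (Batf3) and 0.34 (Cybb). No gene had K289R and WT arrays that did not overlap, against 0.167% of all genes. The limma 95% intervals reached at most 0.39 to either side of the difference, with a median of 0.18, and their outermost bounds were -0.28 and 0.69. The p-values measure the spread between mice, which the labels call biological replicates.

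**Figure D2:**
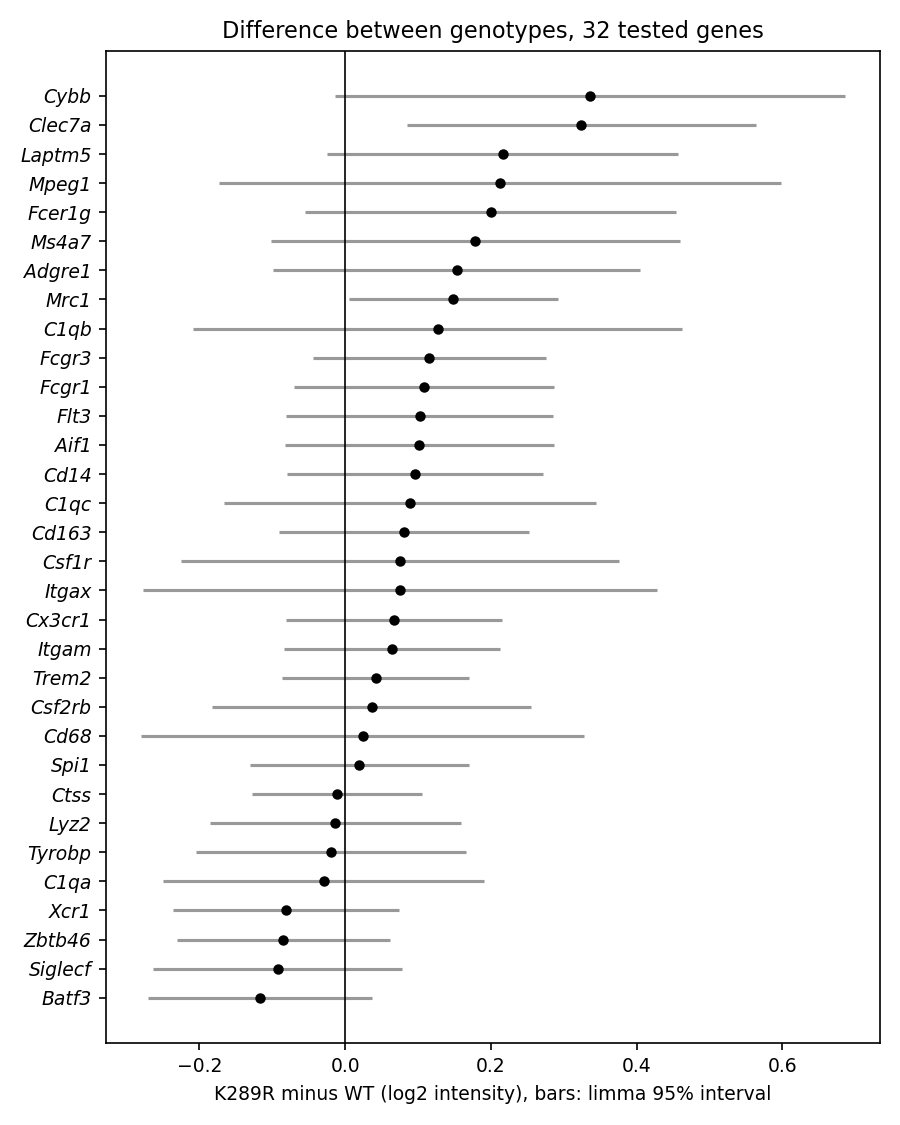
Difference between genotypes (K289R minus WT, log2 intensity, horizontal axis) for the 32 genes tested, with the limma 95% interval as a bar. Clec7a and Mrc1 alone have intervals that leave out 0, and neither passed the adjusted threshold.

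The median depended on single mice. It was 0.13 without K289R replicate 1, 0.12 without WT replicate 5, 0.05 without K289R replicate 2, 0.05 without K289R replicate 6 and 0.05 without WT replicate 1. Without the 4 arrays with high levels of the ileal gene Fabp6 (K289R replicates 2 and 7, WT replicates 1 and 6) it was 0.03, and the differences of 8 genes, Csf1r among them, changed sign. Markers of several other cell types also had higher means in K289R mice. All 7 fibroblast markers did, with a median of 0.30, and so did all 7 smooth muscle markers, with a median of 0.27. The mean level of the fibroblast list was 9.52 to 9.93 on K289R arrays and 9.36 to 9.81 on WT arrays, and that of the smooth muscle list was 10.88 to 11.40 on K289R arrays and 10.87 to 11.07 on WT arrays. At an unadjusted p under 0.05 there were 5 fibroblast and 6 smooth muscle genes, and none passed the adjusted threshold. Of all genes, 4.43% had such an unadjusted p with the higher mean in K289R mice. Of the MHC class II genes, carried by dendritic cells, macrophages and B cells, 5 of 5 measured had the higher mean in K289R mice (median 0.46, 0 past the adjusted threshold and 1 at an unadjusted p under 0.05 in limma), with list means of 10.61 to 11.74 on K289R arrays and 10.07 to 11.52 on WT arrays. The mean was also higher in K289R mice for 10 of 10 B cell, 11 of 12 T cell and 6 of 6 endothelial genes, but for 2 of 7 neutrophil, 3 of 6 tuft cell, 4 of 7 enterocyte and 4 of 9 myeloid ligand genes. Among further myeloid genes, it was higher for 9 of 13 macrophage, 4 of 6 monocyte and 5 of 8 eosinophil genes. The same held for 8 of 10 conventional and 4 of 5 plasmacytoid dendritic cell genes. Mertk, of the macrophage list, differed by -0.31 (unadjusted p = 0.012, adjusted p = 0.436 in limma). The part of these cells in the values of the 32 genes was not tested.

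The Fc receptors and other receptors that signal through tyrosine activation motifs include the gene with the smallest p. Clec7a encodes Dectin-1, the receptor for fungal beta-glucan. It measured 7.48, 8.03 and 8.17 (lowest, median, highest) in K289R mice and 7.14, 7.61 and 7.81 in WT mice, with means of 7.90 ± 0.26 in K289R mice and 7.57 ± 0.22 in WT mice (SD, n = 7 each). The arrays overlapped, although 6 of 7 K289R mice lay above the WT mean. The difference was 0.32 (SE 0.11), with an adjusted p of 0.436 in limma, and the unadjusted p stayed under 0.05 in all 14 fits that each left out 1 mouse. Fcer1g, the signalling chain shared by several Fc receptors, measured 9.76, 10.13 and 10.42 in K289R mice and 9.62, 9.86 and 10.38 in WT mice. Its means were 10.13 ± 0.21 in K289R mice and 9.93 ± 0.29 in WT mice, a difference of 0.20 (SE 0.12, adjusted p = 0.656 in limma), and the arrays overlapped over most of their range. Tyrobp encodes the partner chain DAP12, Fcgr1 and Fcgr3 encode receptors for IgG, and Trem2 a lipid receptor that signals through DAP12. Their differences lay between -0.02 (Tyrobp) and 0.12 (Fcgr3).

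Of the 4 scavenger and pattern receptors, Mrc1 had the smallest p. Mrc1, the mannose receptor of resident macrophages, measured 8.004, 8.23 and 8.45 in K289R mice and 7.85, 8.11 and 8.23 in WT mice. The means were 8.24 ± 0.14 in K289R mice and 8.09 ± 0.12 in WT mice (SD, n = 7 each), and the difference of 0.15 (SE 0.07) had an adjusted p of 0.565 in limma. The K289R mice lay above the WT mean in 6 of 7 cases, with overlapping ranges. The unadjusted p of Mrc1 was under 0.05 in 4 of the 14 fits that each left out 1 mouse. Cd163, the haemoglobin scavenger receptor, differed by 0.08, Cd14, a co-receptor for bacterial lipopolysaccharide, by 0.10, and Cd68, a lysosomal glycoprotein of macrophages, by 0.02.

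Among effector genes, Cybb, the catalytic subunit of the phagocyte NADPH oxidase, had the widest gap between the genotype means. It measured 8.94, 9.23 and 9.85 in K289R mice and 8.51, 8.90 and 9.47 in WT mice, with means of 9.34 ± 0.35 in K289R mice and 9.001 ± 0.37 in WT mice (SD, n = 7 each). The difference was 0.34 (SE 0.17, adjusted p = 0.604 in limma), about the size of the SD within either genotype. Laptm5, a lysosomal membrane protein of blood cells, measured 8.75, 8.93 and 9.39 in K289R mice and 8.42, 8.84 and 9.10 in WT mice. Its means were 8.98 ± 0.22 in K289R mice and 8.76 ± 0.26 in WT mice, a difference of 0.22 (SE 0.11, adjusted p = 0.609 in limma), with overlapping arrays. Mpeg1, which encodes the pore-forming perforin-2, differed by 0.21 and Ms4a7, a membrane protein of macrophages, by 0.18. Aif1, which encodes the actin-binding protein Iba1, differed by 0.10. Lyz2, macrophage lysozyme, and Ctss, the protease cathepsin S, each differed by -0.01. Lyz2 has a near-identical copy, Lyz1, in Paneth cells, so its probes may read both.

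The complement genes C1qa, C1qb and C1qc encode the 3 chains of C1q, made in tissue mainly by macrophages. C1qa measured 8.67, 8.91 and 9.12 in K289R mice and 8.62, 8.88 and 9.29 in WT mice, with means of 8.93 ± 0.16 in K289R mice and 8.96 ± 0.27 in WT mice and a difference of -0.03 (SE 0.10, adjusted p = 0.951 in limma). C1qb measured 9.72, 10.38 and 10.82 in K289R mice and 9.77, 10.05 and 10.55 in WT mice, with means of 10.30 ± 0.34 in K289R mice and 10.18 ± 0.35 in WT mice and a difference of 0.13 (SE 0.16, adjusted p = 0.834). C1qc measured 7.55, 7.89 and 8.24 in K289R mice and 7.55, 7.75 and 8.26 in WT mice, with means of 7.92 ± 0.23 in K289R mice and 7.84 ± 0.28 in WT mice and a difference of 0.09 (SE 0.12, adjusted p = 0.850). The genotypes overlapped for all 3 chains, with the wider range in WT mice for C1qa, in K289R mice for C1qb and nearly equal ranges for C1qc.

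Of the growth factor receptors, Csf1r, the receptor for CSF1 and interleukin-34, measured 8.82, 9.38 and 9.56 in K289R mice and 8.78, 9.19 and 9.65 in WT mice. The means were 9.31 ± 0.27 in K289R mice and 9.24 ± 0.34 in WT mice (SD, n = 7 each), and the difference was 0.08 (SE 0.14, adjusted p = 0.896 in limma). Flt3 measured 7.06, 7.32 and 7.59 in K289R mice and 6.93, 7.14 and 7.37 in WT mice, with means of 7.28 ± 0.19 in K289R mice and 7.18 ± 0.16 in WT mice and a difference of 0.10 (SE 0.09, adjusted p = 0.749). Both receptors overlapped between the genotypes. Csf2rb, the shared chain of the receptors for GM-CSF, interleukin-3 and interleukin-5, differed by 0.04. In the mouse it has a close copy, Csf2rb2, whose probes could share signal with it.

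Batf3 and Zbtb46, transcription factors of dendritic cells, had the lower mean in K289R mice. Of 10 further dendritic cell genes tested, 8 had the higher mean in K289R mice and 2 the lower. The factors Irf4 (0.25) and Irf8 (0.11) were higher and Relb (-0.10) was lower, none past the adjusted threshold. Batf3 measured 7.504, 7.85 and 8.04 in K289R mice and 7.78, 7.92 and 8.07 in WT mice. The means were 7.81 ± 0.17 in K289R mice and 7.92 ± 0.11 in WT mice (SD, n = 7 each), a difference of -0.12 (SE 0.07, adjusted p = 0.670 in limma), and 1 of 7 K289R mice lay above the WT mean. Zbtb46, a factor of conventional dendritic cells, differed by -0.09, and Spi1 by 0.02. Xcr1, the chemokine receptor of the Batf3-dependent class, measured 7.19, 7.31 and 7.61 in K289R mice and 7.27, 7.44 and 7.63 in WT mice. Its means were 7.37 ± 0.16 in K289R mice and 7.45 ± 0.13 in WT mice, a difference of -0.08 (SE 0.07, adjusted p = 0.764), and the ranges overlapped almost fully. Cx3cr1, the fractalkine receptor of monocyte-derived macrophages, differed by 0.07. Siglecf measured 7.88, 8.11 and 8.32 in K289R mice and 7.98, 8.19 and 8.47 in WT mice, with means of 8.08 ± 0.15 in K289R mice and 8.18 ± 0.17 in WT mice and a difference of -0.09 (SE 0.08, adjusted p = 0.753 in limma). Among the adhesion genes, Itgam, which encodes CD11b, differed by 0.06, Itgax, which encodes CD11c, by 0.07 and Adgre1, which encodes the macrophage antigen F4/80, by 0.15.

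Spread between mice of 1 genotype was wider for these genes than for most. Their median SD within genotype was 0.18 log2 units, against 0.13 over all genes tested, and 30 of the 32 lay above that median. Above the 90th percentile of all genes by this SD were 14 of them. Mpeg1 was the widest, at the 98.7th percentile, and Ctss the narrowest, at the 21.3rd percentile. Wide spread was not particular to these genes. The T cell gene Cd3g lay at the 99.9th percentile, H2-Aa of MHC class II at the 99.7th, Cd79b of B cells at the 99.6th and Kdr of endothelium at the 99.2nd. The enterocyte gene Vil1 (2.33) and the tuft cell gene Dclk1 (14.7) had low percentiles, but their lists were mixed. Among enterocyte genes, Fabp1 lay at the 99.6th percentile and Lct at the 94.7th. Pou2f3, of the tuft cell genes, lay at the 84.5th.

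**Figure D3:**
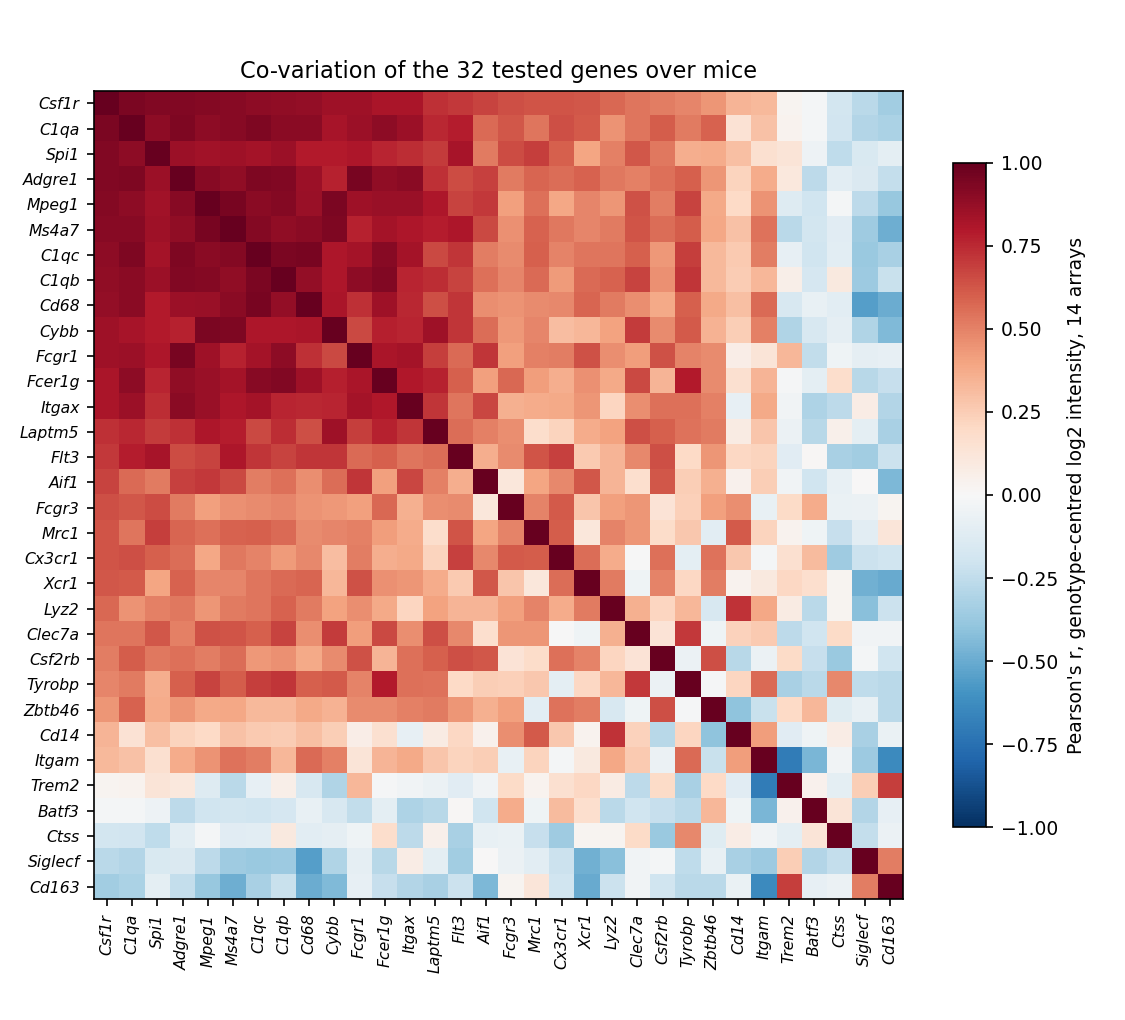
Pearson's r (colour) between each pair of the 32 genes tested, computed over 14 arrays after subtracting each genotype's mean. A block of macrophage genes that includes Csf1r, C1qa, Adgre1 and Mpeg1 has high r throughout, while Cd163, Siglecf, Ctss, Batf3 and Trem2 stand outside it.

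Part of the spread of the 32 genes was shared among them. Over their 496 pairs, the median Pearson's r within genotype was 0.435 and 371 pairs were above 0. This describes 14 arrays on which all genes share the mouse, the RNA preparation and the array. Matching values over pairs of all genes are not given, so no comparison with other genes is made. To find which genes followed Csf1r, each gene's level was regressed on that of Csf1r with genotype in the model (limma over all genes), a test added after the data had been seen. Of the 31 other genes tested, 12 passed an adjusted p of 0.05 (38.7%), all with positive slopes, against 1.73% of all genes with a positive and 0.0389% with a negative slope. These were Mpeg1, C1qa, Adgre1, Ms4a7, C1qb, C1qc, Cd68, Cybb, Spi1, Itgax, Fcer1g and Fcgr1, with r between 0.81 and 0.94.

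Mpeg1 had the steepest slope, 1.19 log2 units per log2 unit of Csf1r (SE 0.14, adjusted p = 0.00037 in limma). Slopes of C1qb and Cybb were both 1.00, with SEs of 0.14 and 0.17. Spi1, the gene of PU.1, had the shallowest slope of the 12, at 0.42 (SE 0.08, adjusted p = 0.00703 in limma). Just short of the threshold was Laptm5, with a slope of 0.57 and an adjusted p of 0.0652 in limma. Flt3 was farther from it, with a slope of 0.41 and an adjusted p of 0.126. At the other end, r with Csf1r was -0.35 for Cd163, -0.27 for Siglecf, -0.18 for Ctss, -0.02 for Batf3 and 0.03 for Trem2, so that known macrophage genes were in both sets. Among the 19 genes that did not pass, the median pairwise r was 0.132.

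**Figure D4:**
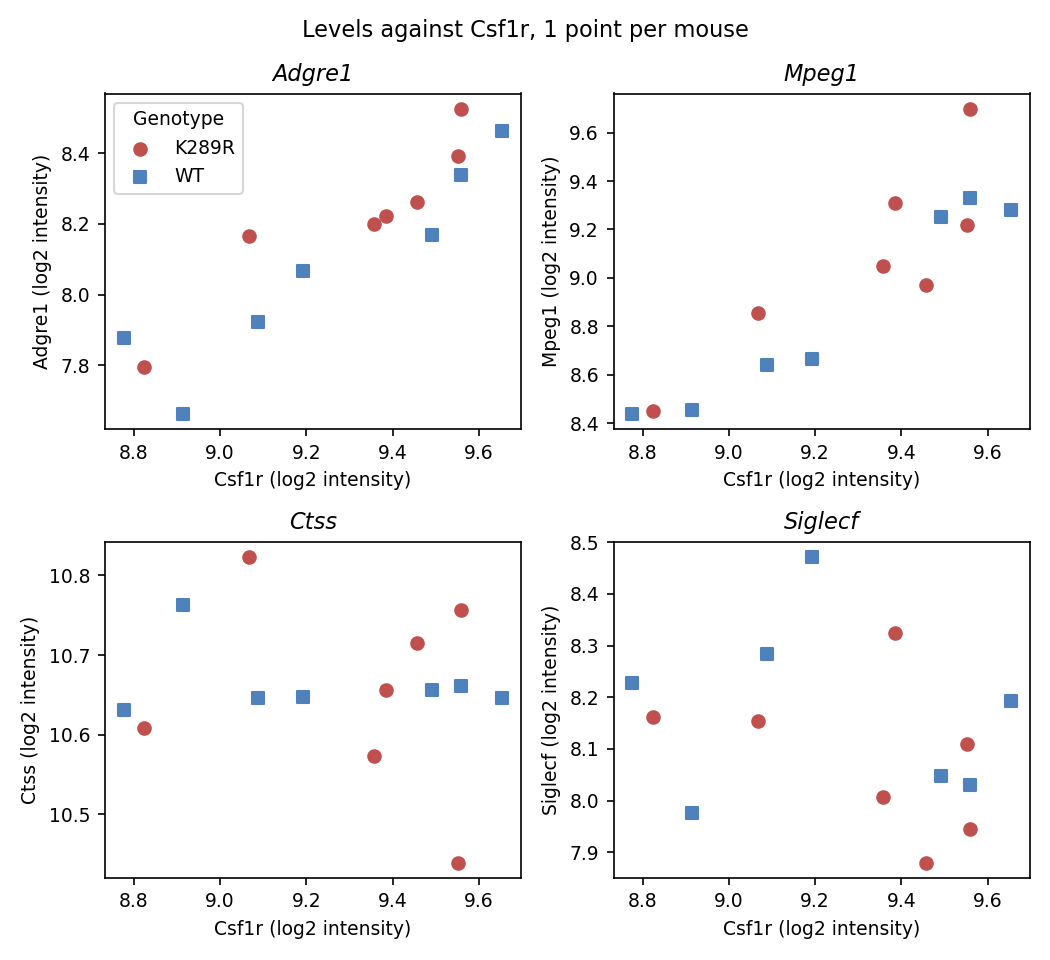
Log2 intensity of selected genes (vertical axis) against that of Csf1r (horizontal axis) in 7 K289R mice and 7 WT mice, 1 point per mouse. Genes that followed Csf1r, such as Mpeg1 with a slope of 1.19, rise along the axis in both genotypes, and Siglecf, with r of -0.27 within genotype, does not.

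The extremes of these genes lay in few mice, which follows in part from choosing them by their relation to Csf1r on the same arrays. K289R replicate 1 was the lowest K289R array for all 13 genes, Csf1r and the 12, and K289R replicate 6 was the highest for 11. Among WT mice, replicate 2 was the highest for 8 and replicate 5 for 4, while replicate 7 was the lowest for 8 and replicate 1 for 5. The slope did not pass a test of its difference between genotypes for any of the 31 genes, at an adjusted or an unadjusted p under 0.05, and 0.977% of all genes had such an unadjusted p. Without K289R replicate 1 and WT replicate 7, the arrays farthest from the median of Csf1r, 8 of the 12 still passed, against 1.09% of all genes. Cybb, Fcer1g, Fcgr1 and Spi1 did not.

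Gene pairs, some of the same cells or complex and some of different cells, were tested within each genotype over 7 mice by exact permutation, 2-sided. With Benjamini-Hochberg adjustment over 36 tests of 18 pairs, 15 passed by Pearson's r. Csf1r and Adgre1 had a Pearson's r of 0.925 (exact adjusted p = 0.00357, Spearman's rho 1) in K289R mice and 0.923 (exact adjusted p = 0.0156, rho 0.964) in WT mice. C1qa and C1qc, chains of 1 complex, had r of 0.933 in K289R mice and 0.955 in WT mice. Spi1 and Csf1r had r of 0.906 in K289R mice and 0.970 in WT mice, and Cybb and Mpeg1 had 0.943 in K289R mice and 0.940 in WT mice. All 4 pairs passed in both genotypes by Pearson's r. By Spearman's rho, C1qa and C1qc did not pass in K289R mice, nor Spi1 and Csf1r in WT mice (exact adjusted p = 0.0571 each). Xcr1 and Batf3, which mark the same dendritic cells, had r of 0.163 in K289R mice (exact adjusted p = 0.770) and 0.172 in WT mice (exact adjusted p = 0.766). Lyz2 and Lyz1 had r of 0.761 in K289R mice (exact adjusted p = 0.137) and 0.404 in WT mice (exact adjusted p = 0.476). Whether the probes of Lyz2 read Lyz1 was not tested.

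Lymphocyte genes did not pass with Csf1r. With Cd3e of T cells, r was -0.167 in K289R mice and 0.271 in WT mice, and with Cd79b of B cells it was 0.0888 in K289R mice and 0.0820 in WT mice. Siglecf was paired with Dclk1, a tuft cell gene, and with Ccr3. Its r with Dclk1 was 0.464 in K289R mice (exact adjusted p = 0.390) and 0.873 in WT mice (exact adjusted p = 0.0291), and a test of the difference between the genotypes was not made. With Ccr3, which lay below the limit for dim genes, it was 0.470 in K289R mice and 0.696 in WT mice, neither past the threshold. Without the 2 arrays farthest from the median of Siglecf, r with Ccr3 was -0.172 in K289R mice and -0.072 in WT mice. For the 15 tests that passed, r was 0.858 to 0.970 over 7 mice and 0.752 to 0.983 over the 5 that remained after the 2 arrays farthest from the median of the first gene were left out. None of the 36 passed over 5 mice, where the exact p cannot fall below 0.00833.

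The slope on Csf1r was also read for markers of other cells. Of the fibroblast markers 5 of 7 passed with positive slopes, of the endothelial markers 4 of 6 and of the plasma cell markers 3 of 6, against 1.73% of all genes. Pdgfra, a growth factor receptor of fibroblasts, had a slope of 0.99 (SE 0.12, adjusted p = 0.00037 in limma), and Kdr, a receptor for vascular endothelial growth factor, 1.29 (SE 0.19). No gene passed among 12 T cell, 10 B cell, 5 MHC class II, 7 neutrophil, 3 mast cell, 7 smooth muscle, 7 enterocyte, 6 tuft cell and 5 Paneth cell genes tested. Both ligands of Csf1r passed: Il34 with a slope of 0.63 (SE 0.09, adjusted p = 0.00133 in limma) and Csf1 with 0.60 (SE 0.14, adjusted p = 0.0405).

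**Figure D5:**
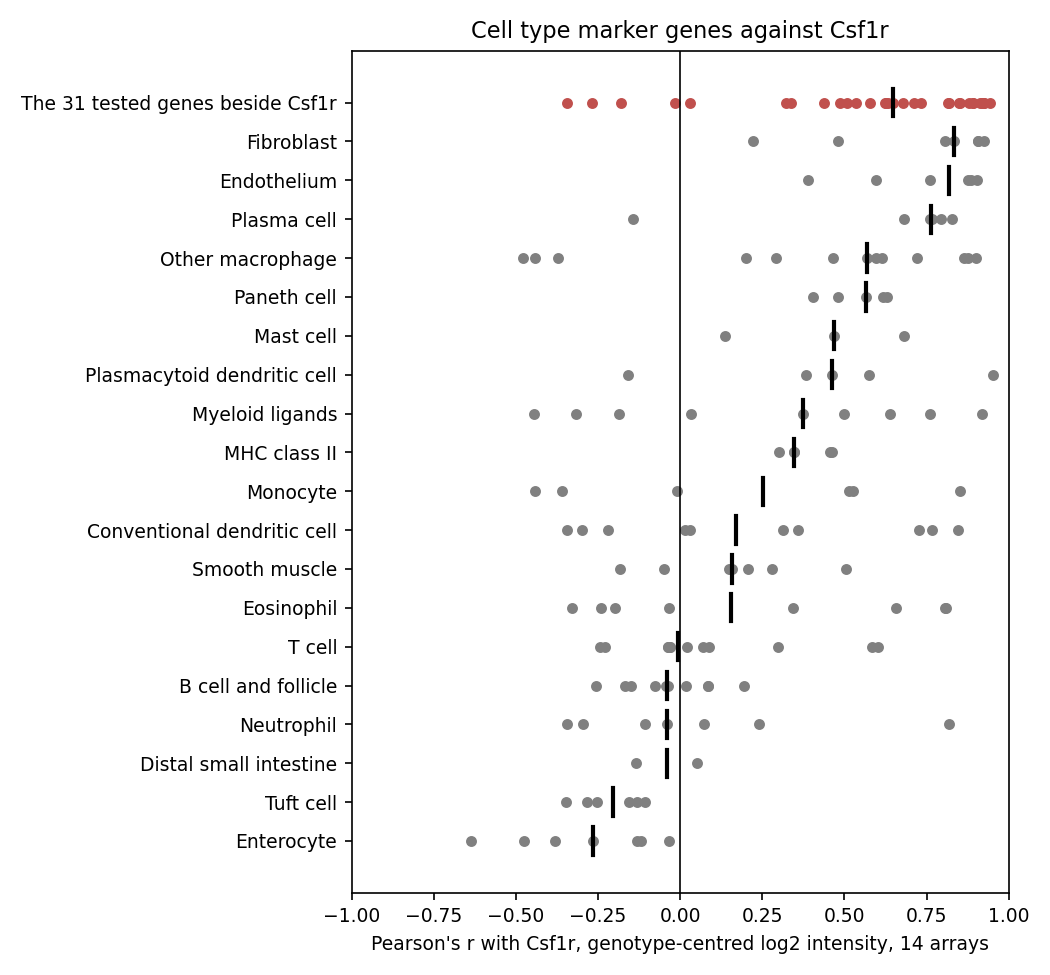
Pearson's r with Csf1r within genotype over 14 arrays (horizontal axis) for each gene of the marker lists (rows, grey points) and for the macrophage, dendritic and eosinophil genes (red points), with the median of each row as a black line. Fibroblast and endothelial genes have medians of 0.83 and 0.82, and T cell genes a median of -0.0058.

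Among other myeloid genes, 3 of 13 further macrophage genes passed. C3ar1, a complement receptor, had a slope of 0.77 (SE 0.11), Msr1, a scavenger receptor, 0.70 (SE 0.12), and Slc11a1, a metal transporter of phagosomes, 0.48 (SE 0.09). The median r with Csf1r over this list was 0.57. It was negative for Maf (-0.48), Mertk (-0.44) and Folr2 (-0.37), whose slopes did not pass. Of 6 monocyte genes, Ly6c2 passed with a slope of 1.49 (SE 0.24, adjusted p = 0.00230 in limma). It has a near-identical neighbour, Ly6c1, known in endothelium, so its probes may read both. The median r of the monocyte list was 0.25, with F13a1 at -0.44 and Plac8 at -0.36, neither past the threshold. Of 10 conventional dendritic cell genes tested, Sirpa and Ccl22 passed, and of 8 eosinophil genes Ccl11, the eotaxin gene of stromal cells, and Csf2rb2. Of 5 plasmacytoid dendritic cell genes only Tcf4 passed, with a slope of 0.61 (SE 0.08, adjusted p = 0.000588 in limma).

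With Pecam1, an endothelial gene whose r with Csf1r was 0.886, as a second covariate, none of the 12 genes passed, and neither did any of all genes in that limma fit. Their 12 slopes were still positive, between 0.20 and 1.13, and 8 had an unadjusted p under 0.05. The share of all genes with such a p in that fit is not given. With Dcn, a fibroblast gene whose r with Csf1r was 0.481, 10 of the 12 passed, against 1.18% of all genes.

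The genes outside the list most like Csf1r over 14 genotype-centred arrays were Dnase1l3 (r = 0.973), which encodes a secreted DNase, then Fbln5 (0.962), a gene of elastic fibres, Plpp3 (0.953), Tcf4 (0.952) and Slc43a3 (0.944). Most like Siglecf were Etfdh (0.926), a mitochondrial electron carrier gene, Cyp3a25 (0.915), Chpt1, Skil and Zfp169. Most like Flt3 were Itga11 (0.931), a collagen-binding integrin of fibroblasts, Arhgef10 (0.885), Rgl1, Scube1 and Cd300c2. These values are descriptions over 14 arrays, ranked from the same data.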

How the data were processed

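The authors deposited linear intensities of 41345 probe sets on 14 arrays (7.40 to 20050.3, with array medians of 168 to 174). The program Affymetrix Expression Console is named, per the submitters' processing notes. How it summarised and normalised probes, and its version, the sources used here do not state. Near-equal medians show values already on 1 scale, and such scaling removes any global shift. Per the labels' protocols, 100 ng of Trizol-extracted RNA was amplified. The deposited intensities were taken to log2 without further normalization. The number of arrays limits the precision.

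Names came from the platform annotation, with symbols updated by Entrez identifier: 23521 probe sets had 1 symbol, 1814 several (left out) and 16010 none. Of 22180 genes, 4170 lay below the 25th percentile of probe sets and 18010 entered 2-sided tests by lmFit and eBayes (limma 3.58.1, R 4.3.3), after a check on simulated data. Array correlations were 0.984 to 0.993, and no array was a copy of another. Exact tests used scipy.

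All 33 genes are named. Given in full are the genes with the smallest limma p, the C1q genes, Csf1r, Siglecf, Ccr3, Xcr1 and Flt3. The members and lists were chosen with earlier results of these data known. Alternatives covered normalization, filters, the probe set rule, eBayes options, array weights, covariates, a replicate block and leaving out arrays.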

Additional observations from a re-analysis of the deposited data

Results flagged for a closer look

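In the 33 genes and both genotypes, 66 groups of 7 arrays were checked for an array standing apart by Dixon's gap test, which flags about 1 in 20 groups by chance, and 3 were found. Cd163 measured 6.52 log2 units in WT replicate 2, below the other WT mice at 6.77 to 6.87. Ctss measured 10.76 in WT replicate 1, above the other WT mice at 10.63 to 10.66. Ccr3, below the limit for dim genes throughout, measured 5.01 in K289R replicate 3, against 4.44 to 4.67 in the other K289R mice.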

How the results depend on the processing

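No gene of the list passed the adjusted threshold under any of 25 alternatives, the lowest adjusted p being 0.297 in limma. As reported, 2 had an unadjusted p under 0.05, Clec7a and Mrc1. Mrc1 did not with quantile normalization (0.0571), array weights (0.0910) or the replicate block (0.0677), whereas Cybb did with array weights (0.0424) and, with the block, Cybb (0.0153), Fcer1g (0.0273) and Laptm5 (0.0307) did. Of 795 differences recomputed, 758 kept their sign and 37 did not, over 10 genes. Lyz2 was 0.0040 with array weights and 0.0062 with T cell markers as covariate. Without the 4 arrays with high Fabp6, an ileal gene (K289R replicates 2 and 7, WT replicates 1 and 6), Cd68 was -0.0650, Csf1r -0.0155, Itgax -0.0508, Cx3cr1 -0.0251, Tyrobp 0.0288, Ctss 0.0369, Csf2rb -0.0540 and Spi1 -0.0352. Leaving out 1 mouse at a time gave -0.0403 to 0.119 for Cd68, -0.00202 to 0.157 for Csf1r, -0.0566 to 0.164 for Itgax, -0.0504 to 0.0290 for Lyz2, -0.0854 to 0.0250 for C1qa, -0.0743 to 0.0297 for Tyrobp, -0.0396 to 0.0242 for Ctss, -0.0363 to 0.0830 for Csf2rb and -0.0161 to 0.0626 for Spi1. The median difference was 0.05 to 0.13 on leaving out 1 mouse and 0.03 without the Fabp6 arrays. On leaving out 1 mouse the median pairwise r was 0.357 to 0.453. The count of genes tied to Csf1r was then 9 to 13, against 1.06% to 1.85% of all genes. That count was 0 with Pecam1 as a covariate, and the gene pairs past the threshold numbered 0 without the 2 farthest arrays, where fewer mice limit the p. Of all genes, 8 passed as reported, 4 to 14 on leaving out 1 mouse, 14 with array weights, 5 with B cell markers as covariate and 5 without the Fabp6 arrays. With a replicate block, 0 genes of the list and 0 of all genes passed, the median difference being 0.08. Over all genes tested, same-numbered mice had r of -0.151 to 0.169, and 0 of 7 K289R mice correlated best with their own number. With the block, the SE fell for some genes of the list, such as C1qb (0.16 to 0.09). It rose for others, such as Cd14 (0.08 to 0.10). Whether replicate numbers pair the mice for the genes of the list was not tested. Other causes were not tested.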
